A study of Rattus norvegicus with 9 samples.

Results

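Transcripts of lung epithelium were followed through 9 artery libraries of adult rats. The 9 genes were taken by symbol from a fixed set, which was chosen with earlier results of these data known. Shares of these genes set beside shares of all features below are therefore descriptions only. Each symbol stood on 1 line of the 30452 features that every count file lists. The alveolar genes were Sftpc, Sftpb, Sftpa1 and Sftpd. The airway genes were Scgb1a1, Muc5b, Bpifb1, Reg3b and Reg3g, and the placing of the last pair among the airway genes was an assignment made for this comparison. RNA came from dissected pulmonary arteries of offspring of dams on ordinary water (PAC, replicates 1, 2 and 4). It also came from mesenteric arteries of offspring whose dams drank 20% sucrose water in pregnancy (MAH, replicates 1, 2 and 3) and from mesenteric arteries of offspring of dams on ordinary water (MAC, replicates 1, 2 and 3). All dams ate standard chow, and the offspring were 3 to 5 months old. The arteries were dissected under a microscope and the libraries are of bulk tissue, so fewer cells of a type and less RNA per cell cannot be told apart in any value below. The labels do not say whether the libraries of a group came from separate animals, so p-values measure only the spread between libraries.

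Alveolar type 2 cells secrete surfactant, a film of lipid and protein that lowers surface tension in the air spaces. Surfactant protein C is made by these cells, whereas surfactant proteins A, B and D are also made by club cells of the small airways. Larger airways are lined by ciliated, goblet, club and basal cells, which carry mucus and antimicrobial proteins. Reg3b and Reg3g encode secreted lectins that bind bacteria, and they are best known from gut epithelium and inflamed pancreas.

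Total counts per library ran from 10388231 to 15420546, so 3 counts in a single library equal 0.195 to 0.289 CPM (the count divided by the library total and multiplied by 1000000). Artery markers were present in all 9 libraries. The summed smooth muscle list (Acta2, Myh11, Tagln, Cnn1, Smtn and Actg2) stood at 22107, 19531 and 3407 CPM in PAC replicates 1, 2 and 4, against 15392 to 27211 CPM in MAH and 11421 to 39453 CPM in MAC. PAC replicate 4 was thus the lowest of all libraries in this list. It was also the highest for 6 of 6 B and plasma cell markers and 5 of 5 T cell markers, while PAC replicate 2 was the highest for 6 of 6 cardiac and 5 of 5 cartilage markers. Over all 23771 features with any count, PAC replicate 4 was the highest library for 28.2% of features, PAC replicate 2 for 8.27% and PAC replicate 1 for 13.1%. Features named as mitochondrial took 14.3%, 20.4% and 27.5% of counts in PAC replicates 1, 2 and 4, against 14.0% to 20.9% in MAH and 13.0% to 17.5% in MAC, so this share was also highest in PAC replicate 4, and its part in the levels below was not tested. Because the pulmonary libraries stand so far apart, each result below is given by library.

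Among the 9 genes, PAC replicate 4 was the highest library for 7, which were the 4 surfactant genes, Scgb1a1, Muc5b and Bpifb1. PAC replicate 1 was the highest for the other two, Reg3b and Reg3g, though on TMM-scaled totals Reg3b was at 4.28 in PAC replicate 1 and 4.37 in PAC replicate 2. The 9 genes made up 0.156% of all counts in PAC replicate 4, 0.00639% in PAC replicate 2 and 0.00416% in PAC replicate 1. In the mesenteric libraries they made up at most 0.000672%, in MAH replicate 1. All 9 genes had at least 1 count in PAC replicates 2 and 4, whereas 5 of them did in PAC replicate 1.

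**Figure D1:**
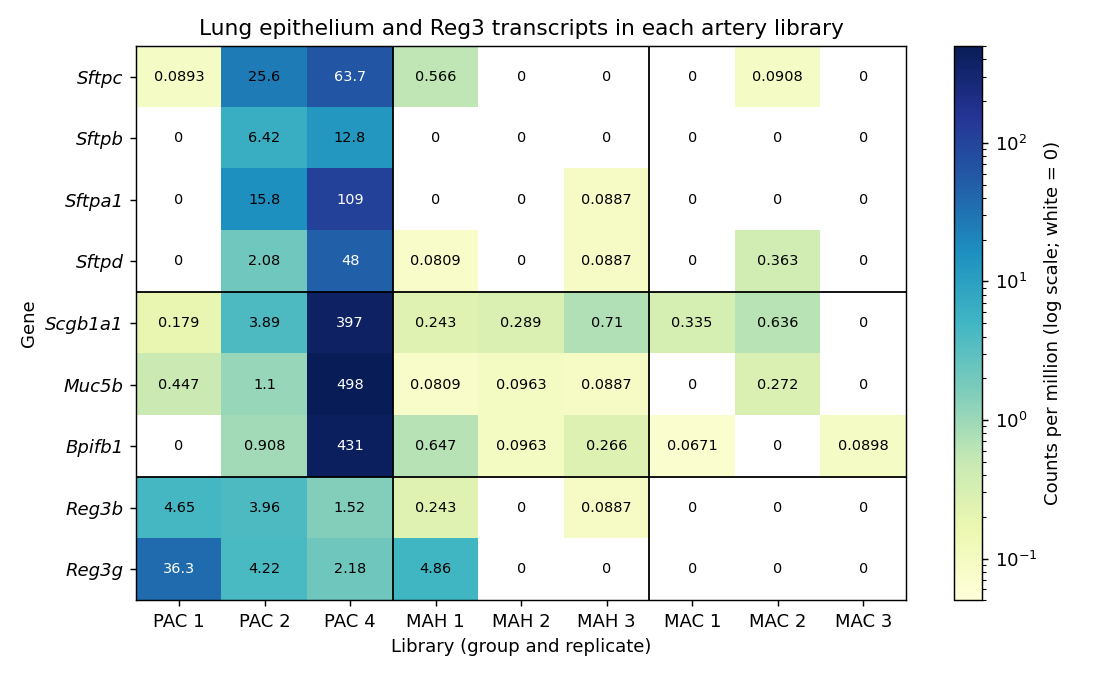
CPM of each gene (rows) in each library (columns, PAC, MAH and MAC, separated by lines), with the value printed in each cell and colour on a log scale. Surfactant genes are at 12.8 to 109 CPM in PAC replicate 4 and 2.08 to 25.6 CPM in PAC replicate 2. In PAC replicate 2, Sftpd (2.08 CPM) is below Scgb1a1 (3.89 CPM). Scgb1a1, Muc5b and Bpifb1 are highest in PAC replicate 4 (397 to 498 CPM), and Reg3g in PAC replicate 1 (36.3 CPM).

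Sftpc encodes surfactant protein C, a small hydrophobic peptide of the surfactant film. It was at 0.0893, 25.6 and 63.7 CPM in PAC replicates 1, 2 and 4, at 0.566, 0 and 0 CPM in MAH replicates 1, 2 and 3, and at 0, 0.0908 and 0 CPM in MAC replicates 1, 2 and 3. The pulmonary libraries 2 and 4 were high, and pulmonary replicate 1 lay within the range of the mesenteric libraries. The mean was 29.8 CPM in PAC, with an SD larger than the mean, 0.189 ± 0.327 CPM in MAH and 0.0303 ± 0.0524 CPM in MAC (SD, n = 3 per group).

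Sftpb encodes surfactant protein B, which organises surfactant lipids into layers and without which newborns cannot breathe. It had 0, 99 and 193 counts in PAC replicates 1, 2 and 4 and 0 counts in each of the 6 mesenteric libraries. Sftpb was the only one of the 9 genes with no count in any mesenteric library. Its summed PAC counts were at least 86.4-fold higher in CPM than the 3 counts over the MAC group that a count of 0 allows, and at least 79.3-fold higher than the same floor in MAH.

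Sftpa1 and Sftpd encode the collectins SP-A and SP-D, lectins that coat microbes in the airspaces. In the RefSeq gene table (assembly GRCr8) both lie on chromosome 16 with 1 protein-coding gene, Mbl1, between them. Sftpa1 was at 0, 15.8 and 109 CPM in PAC replicates 1, 2 and 4. It had 1 count in MAH replicate 3 and 0 in the other 5 mesenteric libraries. Mbl1, a mannose-binding collectin and no member of the set, had 23 counts in PAC replicate 4 and 0 in all other libraries. Sftpd was at 0, 2.08 and 48.0 CPM in PAC replicates 1, 2 and 4, at 0.0809, 0 and 0.0887 CPM in MAH replicates 1, 2 and 3, and at 0, 0.363 and 0 CPM in MAC replicates 1, 2 and 3. Both collectins were at 0 in PAC replicate 1, and PAC replicate 2 lay nearer to replicate 4 for Sftpa1 than for Sftpd.

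Scgb1a1 encodes the club cell secretory protein, the most widely used marker of club cells. It was at 0.179, 3.89 and 397 CPM in PAC replicates 1, 2 and 4, at 0.243, 0.289 and 0.710 CPM in MAH replicates 1, 2 and 3, and at 0.335, 0.636 and 0 CPM in MAC replicates 1, 2 and 3. PAC replicate 1 was below 5 of the 6 mesenteric libraries. Low counts of Scgb1a1 were spread over 5 of the 6 mesenteric libraries, 26 counts in all. Their source was not tested.

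Muc5b encodes a gel-forming mucin of airway mucus, and Bpifb1 a secreted lipid-binding protein of the large airways. Muc5b was at 0.447, 1.10 and 498 CPM in PAC replicates 1, 2 and 4, at 0.0809, 0.0963 and 0.0887 CPM in MAH, and at 0, 0.272 and 0 CPM in MAC. Every PAC library was above every mesenteric one for Muc5b, but with 5 counts in PAC replicate 1. Bpifb1 was at 0, 0.908 and 431 CPM in PAC replicates 1, 2 and 4, at 0.647, 0.0963 and 0.266 CPM in MAH, and at 0.0671, 0 and 0.0898 CPM in MAC. Of the summed PAC level, replicate 4 alone held 99.0% for Scgb1a1, 99.7% for Muc5b and 99.8% for Bpifb1. The mean of each was therefore smaller than its SD, at 134 ± 228 CPM for Scgb1a1, 166 ± 287 CPM for Muc5b and 144 ± 248 CPM for Bpifb1 (SD, n = 3). The share of replicate 4 was smaller for the surfactant genes, at 66.5% for Sftpb, 71.3% for Sftpc, 87.3% for Sftpa1 and 95.9% for Sftpd.

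Reg3g was at 36.3, 4.22 and 2.18 CPM in PAC replicates 1, 2 and 4, at 4.86, 0 and 0 CPM in MAH replicates 1, 2 and 3, and at 0 in each MAC library. Reg3b was at 4.65, 3.96 and 1.52 CPM in PAC replicates 1, 2 and 4, at 0.243, 0 and 0.0887 CPM in MAH, and at 0 in each MAC library. Reg3g was thus highest in the pulmonary library with the fewest surfactant and mucin counts. Reg3b was at similar levels in PAC replicates 1 and 2, with 52 and 61 counts, and which of them was higher turned with the scaling. Both lectins were lowest, among pulmonary libraries, in the one with the most surfactant and mucin counts. MAH replicate 1 held 60 of the 60 mesenteric counts of Reg3g and was above PAC replicates 2 and 4. The label of an airway transcript does not describe these data for Reg3b and Reg3g, which are described on their own from here.

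Airway and alveolar genes were set against each other within the pulmonary libraries by the ratio of CPM in PAC replicate 4 over PAC replicate 2. Such a ratio is within a gene and does not depend on its length. It compares 2 libraries and not conditions, and its exact 95% interval covers counting error only. Sftpb had a ratio of 1.99 (1.55 to 2.56) and Sftpc of 2.495 (2.22 to 2.81). Sftpa1 followed at 6.86 (6.00 to 7.88) and Sftpd at 23.1 (16.2 to 34.1). Scgb1a1 stood at 102 (79.2 to 134), Muc5b at 452 (282 to 776) and Bpifb1 at 475 (283 to 869). The 4 surfactant genes did not share a common ratio, and every surfactant interval lay below that of Scgb1a1. The intervals of Sftpb and Sftpc overlapped, as did those of Muc5b and Bpifb1, so the order within these pairs was not resolved at this depth. Reg3b and Reg3g lay below 1, at 0.385 (0.227 to 0.630) and 0.518 (0.330 to 0.799).

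**Figure D2:**
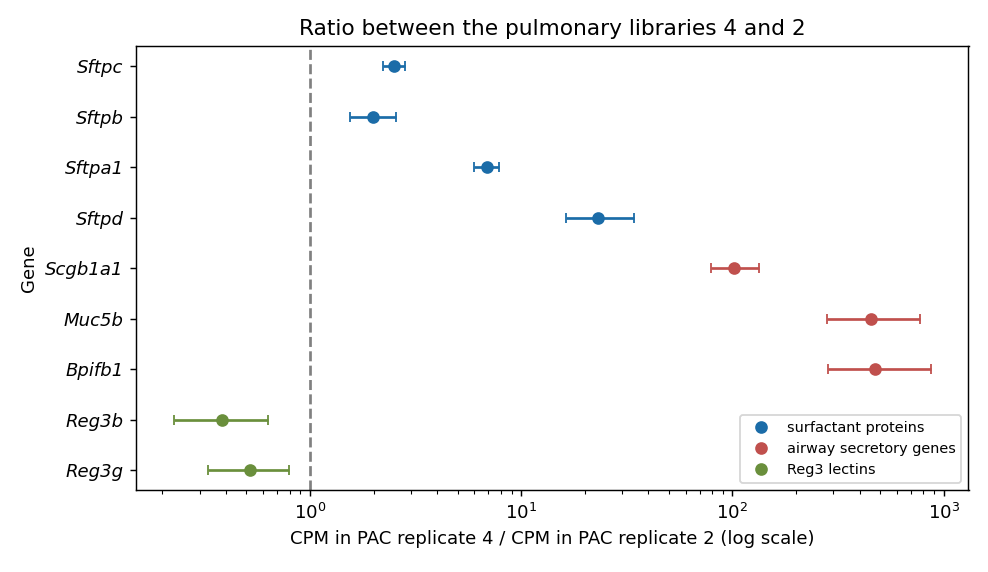
Ratio of CPM in PAC replicate 4 over PAC replicate 2 for each gene (log axis), with exact 95% intervals from the counts and a dashed line at 1. Surfactant genes span 1.99 to 23.1, the airway secretory genes 102 to 475, and both Reg3 lectins lie below 1.

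Summed over genes, the alveolar members reached 233 CPM in PAC replicate 4, 49.9 CPM in PAC replicate 2 and 0.0893 CPM in PAC replicate 1. The airway members without the Reg3 pair reached 1326 CPM in replicate 4, 5.90 CPM in replicate 2 and 0.625 CPM in replicate 1. The ratio of replicate 4 over replicate 2 was 4.67 for the alveolar sum (4.32 to 5.06) and 225 for this airway sum (183 to 279). With Reg3b and Reg3g included, airway genes took 99.8% of the 466 member counts in PAC replicate 1 (exact 95% interval with a lower bound of 98.8%), 22.0% of 986 in replicate 2 (19.5% to 24.7%) and 85.1% of 23632 in replicate 4 (84.6% to 85.5%). Without the Reg3 pair the share was 87.5% of 8 counts in replicate 1 (47.3% to 99.7%), 10.6% of 860 in replicate 2 (8.61% to 12.8%) and 85.0% of 23576 in replicate 4 (84.6% to 85.5%). The alveolar share of these counts was therefore larger in replicate 2 than in replicate 4. Replicate 1 had too few counts outside the Reg3 pair to place. These shares are sums over genes of unequal length, so they compare libraries and not the amounts of the transcripts within 1 library.

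The same contrast was described over the 9 libraries by the correlation of log2(CPM + 0.5) between genes, as a description only, since all points share the depth of their library and 1 or 2 pulmonary libraries set each value. Sftpc and Sftpb had a Pearson r of 0.992 and Scgb1a1 and Muc5b of 0.982. Sftpd had r = 0.993 with Scgb1a1 and 0.915 with Sftpc, so this surfactant collectin lay closer to the club cell gene. Reg3b and Reg3g had r = 0.865 with each other and 0.152 to 0.384 with Scgb1a1.

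Sequences upstream of the start are shown for the Reg3 pair and for members on either side of the airway and alveolar contrast. They are the 120 bases before the gene start from RefSeq (build GRCr8, which is not the build rn7 of the counts), 5′ to 3′ along the gene's strand, and 6 of the 9 genes matched by symbol. Sftpc, Sftpd and Muc5b were not matched. Letters in capitals mark TATAAA, the TATA box core, and CTCAAG, a core of sites bound by the lung and thyroid factor NKX2-1, each searched on both strands.
Scgb1a1, chr1:215409687-215409806, minus strand: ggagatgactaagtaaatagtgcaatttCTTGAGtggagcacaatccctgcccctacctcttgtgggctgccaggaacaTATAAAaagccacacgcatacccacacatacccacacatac
Sftpb, chr4:105917468-105917587, plus strand: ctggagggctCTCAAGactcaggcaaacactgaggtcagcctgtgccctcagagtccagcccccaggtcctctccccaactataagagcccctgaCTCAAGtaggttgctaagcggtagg
Sftpa1, chr16:17042144-17042263, plus strand: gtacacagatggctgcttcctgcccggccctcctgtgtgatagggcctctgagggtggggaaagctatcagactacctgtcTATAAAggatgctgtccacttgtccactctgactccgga
Reg3b, chr4:112419656-112419775, plus strand: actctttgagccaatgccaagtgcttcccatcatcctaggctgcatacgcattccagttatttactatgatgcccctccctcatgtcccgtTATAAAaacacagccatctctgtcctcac
Reg3g, chr4:112484739-112484858, minus strand: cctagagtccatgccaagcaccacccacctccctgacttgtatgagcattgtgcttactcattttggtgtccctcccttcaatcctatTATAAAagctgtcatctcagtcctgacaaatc

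CTCAAG was found at 2 places before Sftpb and at 1, on the opposite strand, before Scgb1a1, so it stood in 2 of the 6 windows, against 6.15% of the 33469 windows of that length in the table. TATAAA stood in 4 of the 6 windows, those of Scgb1a1, Sftpa1, Reg3b and Reg3g, against 6.66% of all windows. TGTTTAC, a core of FOXA sites, stood in none of the 6, against 1.41% of all windows. The window of Bpifb1 held none of the 3 motifs. The windows of Reg3b and Reg3g aligned with 61.6% identity over 125 columns, above the 39.4% to 50.4% of the other 14 pairs of windows. A match of letters is not a bound site, and nothing is drawn here from the letters about the levels.

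The first comparison set PAC against MAC, pulmonary against mesenteric artery of control offspring. No member passed the test. The quasi-likelihood test of edgeR, with p-values adjusted by the Benjamini-Hochberg method, called 2 of 14315 genes (0.014%) at an adjusted p under 0.05. Only Reg3b and Reg3g of the 9 members passed the filter on low counts, which asks for expression in at least 3 libraries. The other 7 members were therefore not tested in that fit, as PAC replicate 1 was at or near 0 for each. Reg3b was at 3.37 ± 1.64 CPM in PAC and 0 in MAC (SD, n = 3), at least 40.3-fold higher against the floor of 3 counts over the MAC group, with an adjusted p of 0.188 by edgeR. Reg3g was at 14.2 ± 19.1 CPM in PAC and 0 in MAC, at least 149-fold higher, with an adjusted p of 0.392 by edgeR. PAC replicate 1 held 85.0% of the summed PAC level of Reg3g, and without it the bound was at least 39.6-fold. Without MAC replicate 1 the bound was at least 24.1-fold for Reg3b and 89.1-fold for Reg3g. Both had an unadjusted p under 0.05, as did 8.53% of all genes tested. Both were above every MAC library in each PAC library, as was Muc5b, so that 3 of 9 members were higher without overlap, against 5.43% of the 22989 features with a count. DESeq2 called both Reg3 genes, with adjusted p-values of 1.0e-05 for Reg3b and 1.4e-06 for Reg3g, among 408 of 14315 genes (2.85%, 1.21% higher in PAC).

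Without the filter, the edgeR fit covered all 9 members among 22989 features and called 2 features (0.0087%), none of them a member. At an unadjusted p under 0.05 it held 4 of 4 alveolar and 5 of 5 airway members, beside 8.07% of all features. The adjusted p by edgeR ran from 0.255 for Reg3b to 0.605 for Bpifb1, Muc5b, Sftpb, Scgb1a1, Sftpa1 and Sftpd. The pooled PAC counts were nevertheless far above the pooled MAC counts in CPM. Their ratio was 449 for Scgb1a1 (counting interval 257 to 870, 6070 against 12 counts) and 168 for Sftpd (65.4 to 619, 758 against 4 counts). It was 2235 for Muc5b (764 to 10838, against 3 counts), 2899 for Bpifb1 (802 to 23939, against 2 counts) and 1207 for Sftpc (216 to 47694, against 1 count). For Sftpa1 the bound was at least 558-fold. These ratios rest on PAC replicate 4, which held 7528 of the 7550 PAC counts of Muc5b and 6515 of the 6529 of Bpifb1. Without that library the ratio was 10.2 for Muc5b (3.07 to 53.3), 9.75 for Bpifb1 (2.24 to 88.4), 7.19 for Scgb1a1 (3.84 to 14.7), 11.1 for Sftpd (3.95 to 43.4) and 550 for Sftpc (98.1 to 21777, against 1 count), and the bound for Sftpa1 was at least 113-fold. Leaving out PAC replicate 2, MAC replicate 1 or MAC replicate 2 also moved some of them by over 1.5 times, such as Scgb1a1 to 705 without PAC replicate 2 and 758 without MAC replicate 2, and Muc5b to 1335 without MAC replicate 1. These intervals cover counting error only and leave out the spread between the pulmonary libraries, of which replicate 1 lay at or near mesenteric levels. With PAC replicate 1 left out, all 9 members passed the filter, none passed the test, and the smallest adjusted p by edgeR was 0.128, for Sftpc. All 9 also passed the filter with any 1 MAC library left out, but only Reg3b and Reg3g did without PAC replicate 2 or 4. The remaining members thus passed through those PAC libraries, where their levels were highest, and their p-values are limited by that selection.

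The second comparison set PAC against MAH, where artery and sucrose of the dam differ together and cannot be told apart. Here edgeR called 23 of 14222 genes (0.162%) and no member. Again Reg3b and Reg3g alone passed the filter. Both passed it only with the PAC libraries, since MAH had 3, 0 and 1 counts of Reg3b and 60, 0 and 0 of Reg3g. Their p-values below, with those of the fits without 1 library, are limited by that selection. Reg3b was at 3.37 ± 1.64 CPM in PAC and 0.110 ± 0.123 CPM in MAH (SD, n = 3). Its log2 fold change was 4.76 ± 0.91 (SE), and edgeR gave an adjusted p of 0.154. Without PAC replicate 4 its log2 fold change was 5.11, with an adjusted p of 0.0333 by edgeR, which called 200 of 14485 genes there. DESeq2 gave Reg3b an adjusted p of 3.3e-04, among 545 genes called (3.83%, 1.48% higher in PAC). Reg3g was at 14.2 ± 19.1 CPM in PAC and 1.62 ± 2.80 CPM in MAH, and its log2 fold change was 3.10 ± 1.84 (SE). Its adjusted p was 0.617 by edgeR and 0.736 by DESeq2. The groups overlapped through MAH replicate 1, without which MAH stood at 0 and the adjusted p by edgeR was 0.630. Without PAC replicate 1 the log2 fold change of Reg3g was 1.13. Every PAC library was above every MAH library for 2 of 9 members, Muc5b and Reg3b, against 5.53% of 23006 features. Without the filter the edgeR fit called 2 features (0.00869%) and no member, and 8 of 9 members, all but Reg3g, had an unadjusted p under 0.05, beside 8.96% of all features. Their adjusted p ran from 0.298 for Reg3b to 0.640 for Reg3g. In pooled counts the PAC to MAH ratio was 158 for Sftpc (76.6 to 394), 353 for Scgb1a1 (210 to 647) and 443 for Bpifb1 (254 to 859), with counting intervals. Without PAC replicate 4 it was 72.1 for Sftpc (34.7 to 181), 5.66 for Scgb1a1 (3.13 to 10.9) and 1.49 for Bpifb1 (0.640 to 3.53), whose interval then included 1. Scgb1a1 moved to 555 without PAC replicate 2 and 551 without MAH replicate 3, and Bpifb1 to 702 without PAC replicate 2 and 847 without MAH replicate 1. Sftpc, Sftpb and Sftpa1 each had an adjusted p of 0.154 by edgeR once PAC replicate 1 was left out, and none of the 9 members was called in that fit. With any 1 MAH library left out all 9 also passed the filter, but without PAC replicate 2 or 4 only Reg3b and Reg3g did. The same limit of selection through PAC replicates 2 and 4 therefore applies.

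The third comparison set MAH against MAC, offspring of sucrose-drinking dams against controls in the mesenteric artery. No member passed the filter on low counts, so none was tested, and edgeR called 0 of 13995 genes (0%), with 1.99% at an unadjusted p under 0.05 and 3 genes (0.0214%) called by DESeq2. Without the filter the 8 members with any count had unadjusted p-values by edgeR of at least 0.0731, that of Bpifb1, so none was under 0.05, beside 1.89% of all features. Bpifb1 had 8, 1 and 3 counts in MAH and 1, 0 and 1 counts in MAC, and the ratio of pooled CPM was 6.54 (1.46 to 60.1, counting error only). It was the 1 member with every MAH library above every MAC library, against 2.13% of 22647 features. That order rested on 1 count in MAH replicate 2 (0.0963 CPM) against 1 count in MAC replicate 3 (0.0898 CPM), which differ only by library total. Scgb1a1 had 14 counts in MAH and 12 in MAC (ratio 1.27, 0.546 to 3.01), Muc5b had 3 and 3, and Sftpd had 2 and 4. For Scgb1a1 and Muc5b the intervals included 1, so no difference was detectable at this depth. Reg3g had 60, 0 and 0 counts in MAH replicates 1, 2 and 3 and 0 in MAC, so that 1 library decided its group value.

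Markers of the cell types that make these transcripts were counted from lists written with earlier results of these data known. The level was highest in PAC replicate 4 for 12 of 12 general epithelial genes, 3 of 3 basal cell genes, 9 of 10 ciliated cell genes with any count, 6 of 9 goblet and gland genes and 4 of 6 club cell genes, beside 28.2% of all features. General epithelial genes summed to 1.43, 8.95 and 333 CPM in PAC replicates 1, 2 and 4, against 1.54 to 2.41 CPM in MAH and 1.01 to 3.27 CPM in MAC. Among them Nkx2-1, the transcription factor of lung epithelium, had 0, 12 and 227 counts in PAC replicates 1, 2 and 4 and 0 in every mesenteric library. Epcam, a surface protein of epithelial cells, had 6, 24 and 909 counts in PAC and 0 to 9 in the mesenteric libraries.

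Scgb3a1, a secretoglobin of the larger airways, had 2, 6 and 3896 counts in PAC replicates 1, 2 and 4. Pigr, the receptor that carries immunoglobulin A across epithelium, had 0, 71 and 6737, and Bpifa1, an airway surfactant and host defence protein, had 1, 144 and 5421. In the RefSeq order Bpifa1 and Bpifb1 lie on chromosome 3 with Bpifa5 between them. Krt5, the keratin of basal cells, had 0, 22 and 954 counts, and Sntn, a protein of motile cilia, 0, 0 and 352. Pigr, Bpifa1, Krt5 and Sntn had at most 3 counts in any mesenteric library, and Scgb3a1 at most 5. Agr2, a disulfide isomerase of the goblet and gland list, was not limited to the pulmonary libraries. It had 40, 4 and 527 counts in PAC replicates 1, 2 and 4, 13 to 517 in MAH and 15 to 903 in MAC. Tppp3, the ciliated gene with the highest level, was at 68.3, 44.5 and 212 CPM in PAC replicates 1, 2 and 4. It was at 48.8 to 184 CPM in MAH and 107 to 169 CPM in MAC. Ccdc39 of the ciliated list had 219 to 372 mesenteric counts, and Cyp4b1 of the club cell list was highest in MAH replicate 2 (38.5 CPM). Krt15, the basal gene with the highest level, had 81, 96 and 2927 counts in PAC and 3 to 26 in mesenteric libraries.

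Alveolar type 2 markers other than the members were also counted. For 6 of these 7 genes the top level was in PAC replicate 4, beside 28.2% of all features. Together the 7 genes took 0.00669%, 0.00624% and 0.0283% of all counts in PAC replicates 1, 2 and 4. In MAH they took 0.00744% to 0.00797% and in MAC 0.00658% to 0.00952%, so PAC replicate 2 was the lowest library. Napsa, the highest of them, was at 3.93, 4.09 and 140 CPM in PAC replicates 1, 2 and 4. It was at 2.51 to 9.14 CPM in MAH and 3.35 to 18.9 CPM in MAC. Slc34a2, the phosphate transporter of type 2 cells, had 1, 52 and 333 counts in PAC replicates 1, 2 and 4 and at most 3 in the mesenteric libraries, and Lamp3, a lysosomal protein of these cells, had 0, 15 and 151. Abca3, the lipid transporter of lamellar bodies, had 400, 448 and 1014 counts in PAC and 344 to 580 in the mesenteric libraries, so it was present in libraries without surfactant transcripts too. Of the alveolar type 1 list, Aqp5, a water channel, had 0, 8 and 85 counts in PAC and 0 in all mesenteric libraries. Ager and Hopx, which are also expressed outside the lung, were present in all libraries. The sum of the type 1 list was 111, 295 and 156 CPM in PAC replicates 1, 2 and 4, against 126 to 324 CPM in MAH and 112 to 256 CPM in MAC, so the groups overlapped.

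No gene of the 7 epithelial lists passed edgeR outside the members in any of the 3 comparisons. Of these lists 16 genes passed the filter on low counts between PAC and MAC, and the others, at or near 0 in most libraries, were not tested there. Among the 16 the median log2 fold change was 0.49 over 6 type 1 genes, 0.36 over 4 type 2 genes and -0.16 over 2 ciliated genes, beside 0.06 over all genes. The single genes tested from other lists were at 6.54 for Krt15 (basal), 5.68 for Epcam (general), 0.04 (club) and -1.19 (goblet and gland). Clic5, an intracellular chloride channel protein, was called by DESeq2 as higher in PAC than in MAC, and Gprc5a, a retinoic acid-induced receptor, as lower.

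**Figure D3:**
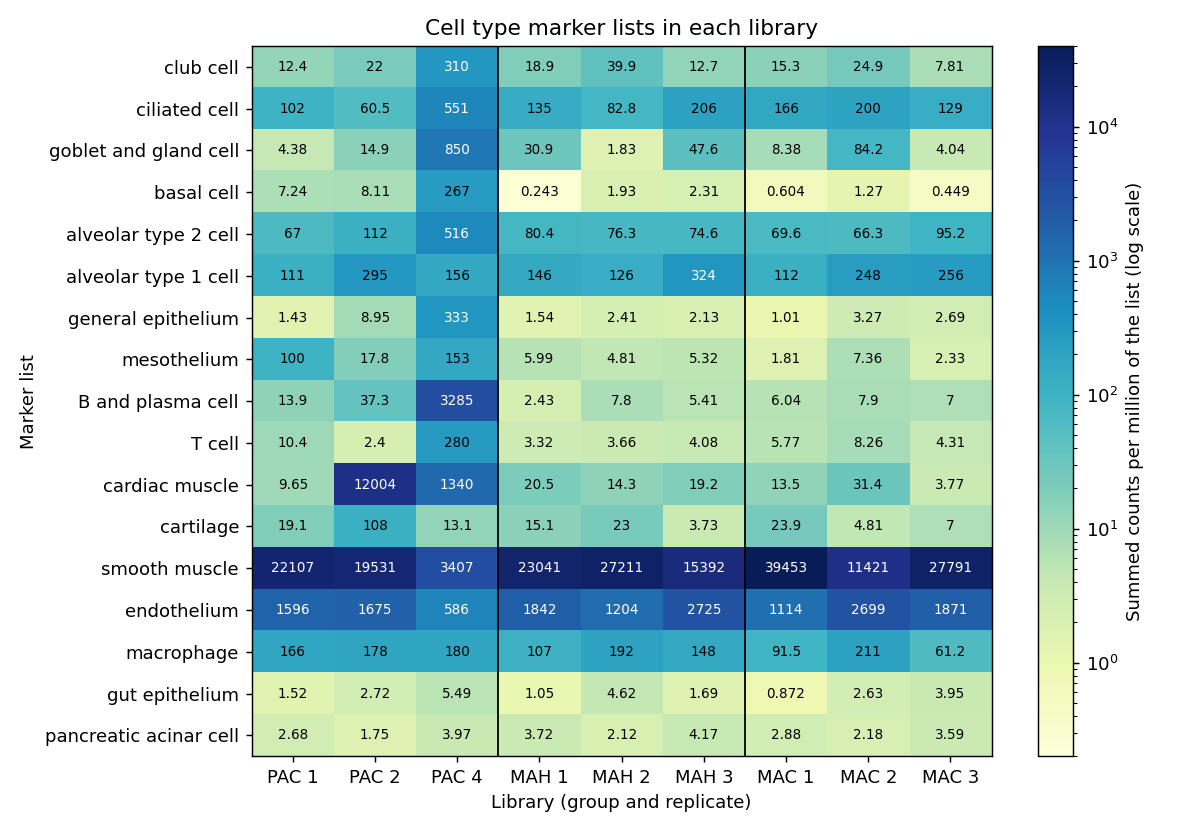
Summed CPM of each marker list (rows) in each library (columns, PAC, MAH and MAC), printed in each cell with colour on a log scale. Lymphocyte lists and the epithelial lists other than alveolar type 1 peak in PAC replicate 4, and the alveolar type 1 list in MAH replicate 3 (324 CPM). Cardiac and cartilage lists peak in PAC replicate 2, and smooth muscle is lowest in PAC replicate 4 (3407 CPM).

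Markers of other cells stood apart in the same libraries. B and plasma cell markers summed to 13.9, 37.3 and 3285 CPM in PAC replicates 1, 2 and 4, against 2.43 to 7.80 CPM in MAH and 6.04 to 7.90 CPM in MAC, with all 6 detected in each of the 9 libraries. T cell markers summed to 10.4, 2.40 and 280 CPM in PAC, against 3.32 to 4.08 CPM in MAH and 4.31 to 8.26 CPM in MAC. Cardiac markers summed to 9.65, 12004 and 1340 CPM in PAC, against 14.3 to 20.5 CPM in MAH and 3.77 to 31.4 CPM in MAC. By level, the 4 surfactant genes and Scgb1a1, Muc5b and Bpifb1 were all highest in PAC replicate 4, the library with the most lymphocyte transcripts, while cardiac transcripts were highest in PAC replicate 2. Their part in the levels of the 9 genes was not tested.

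For Reg3b and Reg3g, 3 other sources were looked at by their markers. Gut epithelium markers summed to 1.52, 2.72 and 5.49 CPM in PAC replicates 1, 2 and 4, against 1.05 to 4.62 CPM in MAH and 0.872 to 3.95 CPM in MAC. PAC replicate 1, where Reg3g was highest, had at most 6 counts of any of these 7 genes. Of the pancreatic acinar list, Prss1 and Pnlip, a trypsinogen and the pancreatic lipase, were at 0 in all 9 libraries, and the list summed to 1.75 to 4.17 CPM throughout. Mesothelium markers summed to 99.96, 17.8 and 153 CPM in PAC replicates 1, 2 and 4, against 4.81 to 5.99 CPM in MAH and 1.81 to 7.36 CPM in MAC, and replicate 1 was highest for 3 of 5 of them. These were Upk3b, Lrrn4 and Upk1b, with 199, 150 and 104 counts there, while Msln reached 2128 counts in replicate 4. Wt1, the fifth, was not higher in PAC, at 4.82, 0.778 and 1.85 CPM in PAC replicates 1, 2 and 4, against 4.04 to 5.18 CPM in MAH and 1.68 to 6.63 CPM in MAC. Muc2 and Sis of the gut list, Cela1 of the pancreatic list and Krt7 and Krt19 of the mesothelium list were not found among the features. The part of gut epithelium, pancreas or mesothelium in the Reg3 levels was not tested.

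The 2 protein-coding genes that lie between Reg3b and Reg3g on chromosome 4 in the RefSeq order, Reg3a and Reg1a, are further lectins of the Reg family. Reg1a had 60, 15 and 7 counts in PAC replicates 1, 2 and 4 and 0 in every mesenteric library, the same order over the pulmonary libraries as Reg3g. Reg3a had 7, 2 and 36 counts in PAC replicates 1, 2 and 4, 1 count in MAH replicate 1 and 0 elsewhere, so it was highest in replicate 4. Reads shared between these related genes cannot be separated here.

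**Figure D4:**
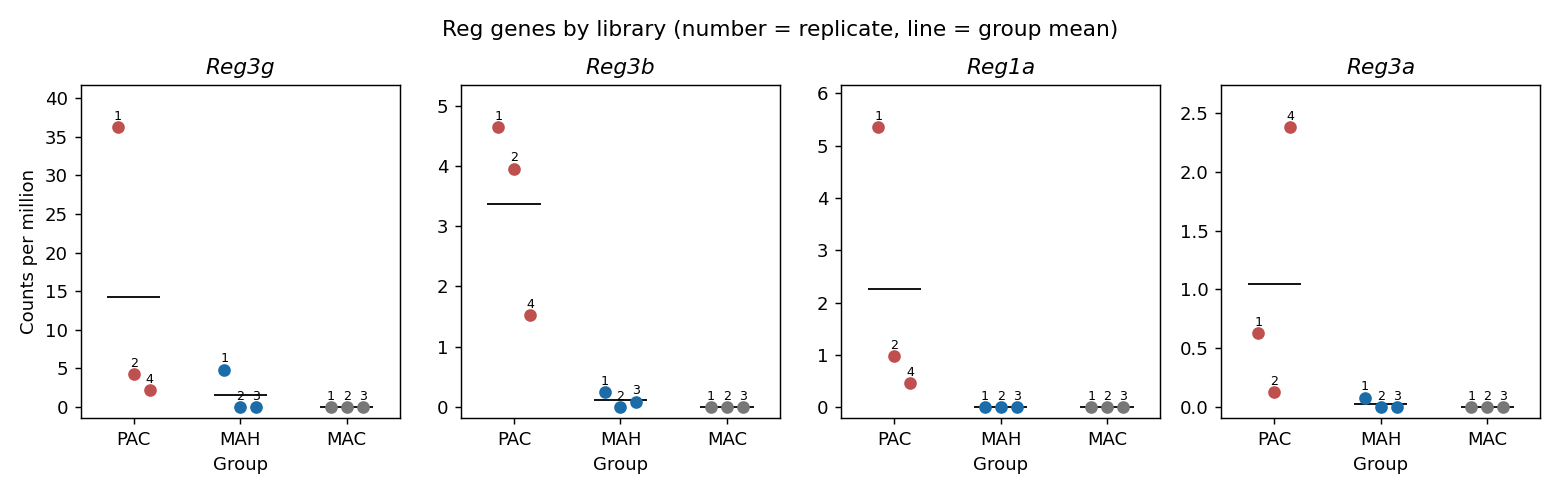
CPM of 4 neighbouring Reg genes in each library by group, with the replicate number above each point and a line at the group mean of 3 libraries (each panel has its own scale). Reg3g and Reg1a peak in PAC replicate 1 and Reg3a in PAC replicate 4, Reg3b is at 4.65 and 3.96 CPM in PAC replicates 1 and 2 (an order that flips on TMM-scaled totals), and all MAC libraries are at 0.

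The genes most like each group were sought among 13425 genes with at least 50 counts and a symbol, by the Pearson correlation of log2(CPM + 0.5) over the 9 libraries with the mean profile of the group. For the alveolar members they were Cldn18 (0.9902), Tacr1 (0.989), Togaram2 (0.989), Slc34a2 (0.987), Bpifa1 (0.985) and Sult4a1 (0.983). Cldn18, the lung claudin of alveolar tight junctions, had 0, 33 and 79 counts in PAC replicates 1, 2 and 4. Tacr1, the receptor of substance P, had 2, 32 and 135. For the airway members with the Reg3 pair they were Ints5, Men1, Clic6, Krt17, C2cd3 and Wwc1 (0.976 to 0.982), of which Krt17, a keratin of basal cells, had 6, 22 and 1010 counts. Ints5, Men1 and C2cd3 were well expressed in all 9 libraries, with Men1, the menin tumour suppressor, at 30.3, 30.7 and 46.6 CPM in PAC against 23.3 to 26.9 CPM in MAH and 23.7 to 26.5 CPM in MAC.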

How the data were processed

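Whole-number counts per gene were deposited by the authors for 9 libraries, without normalization, and rn7 is the genome build per the submitters' processing notes. Per the labels' protocols, polyadenylated RNA was enriched with oligo(dT) beads and copied with random primers, with marking of the second strand. For aligner, counter, annotation and counted strand, the information is not given in the sources used here, and reads shared by related genes or antisense transcripts are not separable. Groups were taken from sample titles. The members and lists were chosen with earlier results of these data known.

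CPM are counts divided by the library total and multiplied by 1000000. Genes were tested with edgeR 4.0.16 in R 4.3.3 (TMM, filterByExpr, robust quasi-likelihood F test, Benjamini-Hochberg over all genes tested, threshold 0.05), with the 6 libraries of a comparison in each fit, and DESeq2 1.42.0 as an alternative. SE is the log2 fold change over the square root of F. The fits were tested on simulated data with known changes, with the same dispersion for every gene. The wide spread between the pulmonary libraries was not simulated, so that test does not bear on the members. The floor for a group at 0 is 3 counts over that group. Ratios have exact conditional and shares exact binomial 95% intervals, which cover counting error only, since no molecular identifiers are mentioned. All 9 members are named. From each marker list, genes were named among those with the highest CPM, and any others after their values were seen. Genes most alike were the 6 of highest correlation. For likeness, names starting as clone, LOC or Ensembl identifiers and repeated names were left out.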

Additional observations from a re-analysis of the deposited data

How the results depend on the processing

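For PAC against MAC, 2 genes were called, against 408 by DESeq2, 9 by the newer quasi-likelihood method and 41 with all 9 libraries in 1 fit, and 0 to 22 with 1 library left out. Members called were 0 of 2 tested, against 2 of 2 by DESeq2, beside 2.85% of all genes. Both passed the filter only through PAC, since MAC was at 0 for both. For PAC against MAH, 23 genes were called, against 2 with median-ratio size factors, 545 by DESeq2, 40 by the newer quasi-likelihood method, 2 with no filter and 12 with the stricter filter of 10 counts in every library of at least 1 group, and 0 to 200 with 1 library left out. Members called were 0 of 2 tested, against 1 of 2 by DESeq2, beside 3.83% of all genes. Here too both passed the filter only with the PAC libraries. With 1 library left out 0 to 1 were called, the 1 being Reg3b without PAC replicate 4, where 200 of 14485 genes were called. For MAH against MAC, 0 genes were called, against 3 by DESeq2. The cause of these shifts was not tested.

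Whether the replicate numbers pair the libraries cannot be decided from these values. Same-numbered libraries of MAH and MAC deviated together with correlations of 0.196, −0.278 and 0.120. PAC shares only 2 numbers with each other group, with correlations of 0.169 and −0.169 for MAC and 0.0243 and 0.124 for MAH. Different-numbered libraries spanned −0.437 to 0.302. Correlations from so few libraries can neither show nor exclude pairing. With the replicate number as a block, PAC replicate 4 and replicate 3 of the mesenteric group have no partner of the same number. The contrast then rests on replicates 1 and 2 alone. In that fit 36 of 14315 genes and 1 of 2 tested members (Reg3g) were called for PAC against MAC. For PAC against MAH, 427 of 14222 genes and 2 of 2 tested members were called.

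On TMM-scaled totals the ratio of PAC replicate 4 over 2 was 4.15 for the summed alveolar members, against 4.67. The airway share of member counts in PAC replicates 1, 2 and 4 was 99.8%, 22.0% and 85.1%. Without Sftpc it was 36.7% in replicate 2 and 88.7% in replicate 4, and all 465 remaining counts in replicate 1 were airway (100%). Without Scgb1a1 it was 17.0% in replicate 2 and 80.0% in replicate 4, and without Reg3b and Reg3g it was 87.5% in replicate 1 and 10.6% in replicate 2. Shares per coding length were not run, as no transcript lengths were at hand. After seeing the data, the highest library was also sought on TMM-scaled totals. The ratio of PAC replicate 1 over 2 for Reg3b then turned to 0.980, against 1.17, and the highest library changed for 1 of 9 members (Reg3b) and 7 of 109 list genes. Pooled ratios without each library, also added then, are given beside them. No other result reversed. Depth limits the mesenteric values, where each member had at most 8 counts in a library, apart from Reg3g in MAH replicate 1.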

Other observations

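The airway secretory genes without the Reg3 pair had other closest genes than the mean of all 5 airway members, a choice made after the values were seen. By the same correlation over 9 libraries they were Aqp4, Chia, Gp2, Cyp2a3, Tp63 and Dpy19l2 (0.996 to 0.998). Aqp4, a water channel, had 0, 7 and 669 counts in PAC replicates 1, 2 and 4 and 0 in all mesenteric libraries. Chia, the acidic chitinase, had 0, 5 and 427 counts, and Gp2, a receptor for bacteria on the M cells that overlie mucosal lymphoid tissue, 0, 7 and 1919, both with 0 in every mesenteric library. Tp63, the transcription factor of basal cells, had 0, 7 and 150 counts, with 1 in MAC replicate 1.

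For Reg3b and Reg3g together, the closest genes were Vgll4, Foxo6, Slc6a9, Pdp2, C4bpa and Tyro3 (0.945 to 0.970), also sought after the values were seen. C4bpa, a regulator of complement, had 30, 52 and 13 counts in PAC replicates 1, 2 and 4, against 7, 1 and 1 in MAH and 1, 2 and 0 in MAC. Slc6a9, a glycine transporter, was at 19.7, 12.3 and 11.1 CPM in PAC, against 9.71, 7.51 and 5.32 CPM in MAH and 7.11, 6.36 and 5.75 CPM in MAC.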
